A study of Saccharomyces cerevisiae with 31 samples.

Results

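The genes followed here encode 43 assembly and export factors of the 60S ribosomal subunit, the large subunit of the yeast ribosome. They were chosen by gene symbol in the annotation of the array, and each of the 43 symbols had 1 probe set, among 5449 genes of Saccharomyces cerevisiae with a probe set. Levels were measured on 31 Affymetrix Yeast 2.0 arrays of total RNA from the strain CEN.PK122 in a continuous, aerated culture, in which the cells swing spontaneously between respiratory and reductive metabolism with a period of 2 h. The arrays form 1 group without control samples, 1 array every 4 min from 12.53 to 14.53 h, and the labels give each a phase angle from 5.93 to 362.01 degrees. They do not say which angles were respiratory, whether the culture was 1 vessel, or how the cells were divided among cell cycle stages. RNA levels of a whole culture cannot tell a change in every cell from a change in the share of cells that express a gene.

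A 60S subunit starts in the nucleolus, where factors bind the new ribosomal RNA, fold it, modify it and trim its spacers. The particle then passes into the nucleoplasm, where an AAA ATPase and several GTPases strip factors off, is exported through the nuclear pores with the help of adaptor proteins, and sheds its last factors in the cytoplasm before it can join a 40S subunit. Genes of these factors belong to the ribosome biogenesis regulon, which in budding yeast is known to follow growth conditions. The 43 genes were placed by textbook role into 17 early nucleolar factors, 9 later nucleolar factors, 9 nucleoplasmic factors, 3 factors that join in the nucleolus and are released in the cytoplasm, and 5 export and cytoplasmic factors.

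As deposited, the arrays had median intensities of 1056 to 2142 over the yeast's own probe sets, and values below are quantile-normalized intensities or their log2. The array numbers in the labels split the arrays into 16 lower-numbered and 15 higher-numbered ones, and the poly-A spikes, set against the hybridization spikes, lay between -4.37 and -3.68 on the log2 scale in the former and between -5.41 and -4.78 in the latter. The labels do not say what the numbers mean, and both sets are spread over the cycle, unevenly. The number of arrays limits the precision. Every p-value reflects the spread of successive arrays of 1 sampled cycle around a fitted curve or window mean, so it speaks of variation with phase in this series and not of recurrence.

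The 43 genes rose and fell together. The median over the 43 genes was 4100 at 5.93 degrees, 5619 at 29.67 degrees, 2138 at 65.28 degrees and 537 at 124.62 degrees, and had returned to 3858 at 362.01 degrees. Of the 43 genes, 32 were highest on the array at 29.67 degrees, 8 at 41.54, 2 at 17.80 and 1 at 53.41 degrees. The lowest array was at 124.62 degrees for 19 genes, at 112.75 for 13, at 136.48 for 5 and at 100.88 for 3, with 1 gene each at 89.01, 160.22 and 172.09 degrees. From lowest to highest array the genes spanned 2.91-fold to 35.3-fold, with a median of 11.6-fold.

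**Figure D1:**
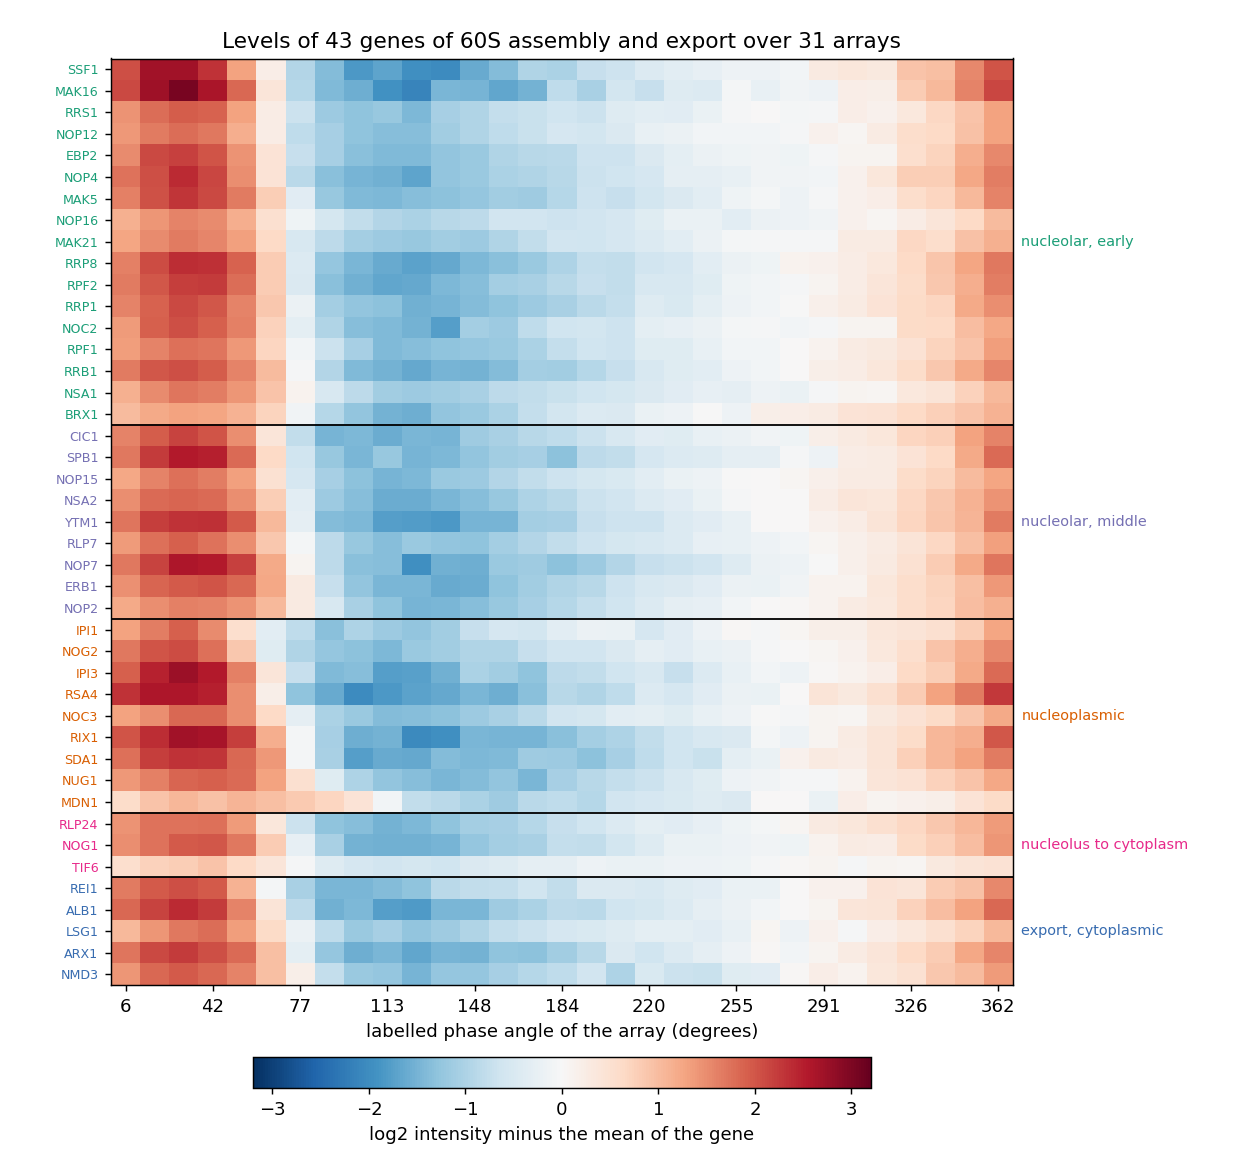
Each row is 1 of the 43 genes and each column 1 of the 31 arrays in order of phase angle (degrees), and colour gives the log2 intensity minus the mean of the gene. Rows are grouped by step and, within a step, ordered by the angle at the midpoint of the fall. The red block from 5.93 to 53.41 degrees is shared by all rows. MDN1 turns blue latest and TIF6 is the palest row.

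A curve of 1 cosine per cycle was fitted to each of 5422 probe sets with limma, and 2 values were read from it, the fitted range from trough to peak (log2) and the angle of the peak. All 43 genes varied with phase at an adjusted p under 0.05 in limma's moderated F-test, where 89.1% of all probe sets tested did, so this count alone does not set them apart from the rest. With a fitted range of 2-fold or more, 42 of 43 passed, against 23.1% of all probe sets tested. The median fitted range was 2.60 on the log2 scale (6.04-fold) over the 43 genes and 0.54 over all probe sets tested. The largest adjusted p among the 43 was 2.39e-06. Of these, 42 had fitted peaks between 343.0 and 3.4 degrees, and MDN1 had its peak at 20.8 ± 5.2 degrees (SE, n = 31 arrays). These peaks lie before the highest arrays, at 17.80 to 53.41 degrees, since 1 cosine can misplace the top of an uneven curve. With terms at 2 and 3 times the angle added, the curves of those 42 genes were highest at 18 to 34 degrees. The SEs of the peak angles do not cover this difference.

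At the upper end of the order of ranges, RIX1, RSA4, MAK16, SSF1, SDA1 and NOP7 lay between 3.48 and 3.19 with SEs of 0.31 to 0.41, and their order was not tested. At the lower end, TIF6 with 0.96 ± 0.13 lay apart from MDN1 with 1.73 ± 0.16 and NOP16 with 1.78 ± 0.22 (SE, n = 31 arrays), while these last genes lay within their SEs of each other. Here and below, the SEs of ranges hold the misfit of 1 cosine, which genes of similar shape share. Overlap of SEs is therefore no test of a difference between genes. Brighter genes tended to have narrower ranges. Across the 43 genes the log2 median intensity and the fitted range gave Pearson's r = -0.58 and Spearman's rho = -0.473. Both quantities come from the same values of each gene, so they are not independent. Residuals of neighbouring arrays around the 1 cosine were correlated (0.645 at the median probe set), and the SEs treat arrays as independent. These residuals hold any misfit of that curve, and around window means the value was 0.0038. With the correlation of 0.645 in the fit of 1 cosine, 43 genes still passed, the largest adjusted p being 0.000421 (limma), against 60.3% of all probe sets tested.

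**Figure D2:**
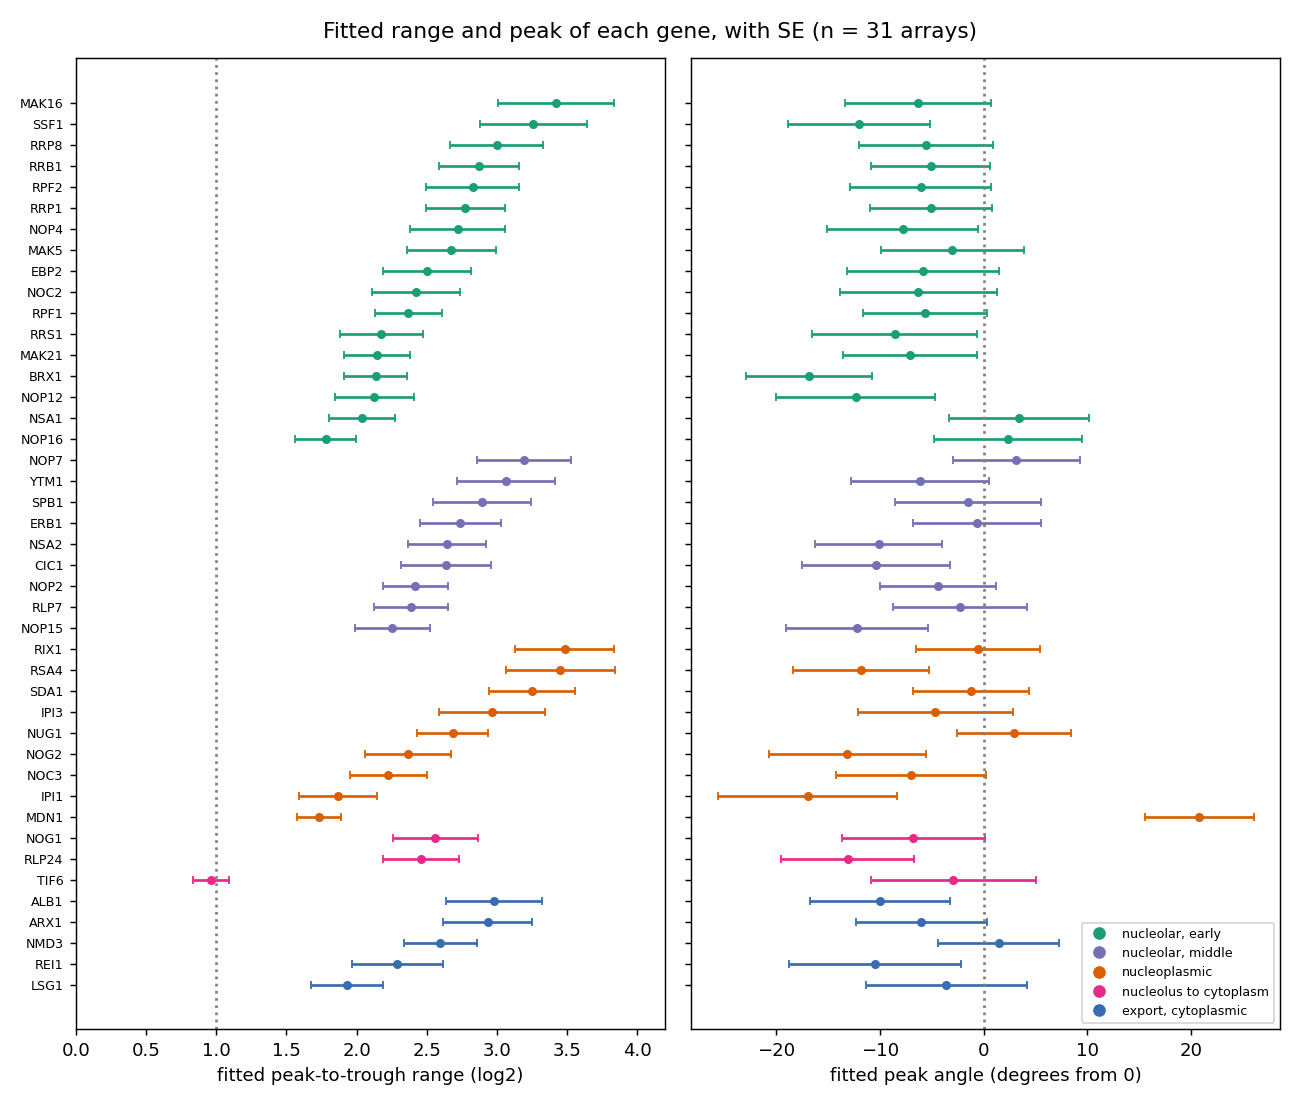
Points give the fitted peak-to-trough range (left, log2) and the fitted peak angle (right, degrees from 0) of each gene, coloured by step, and bars are SEs from limma over 31 arrays. The dotted lines mark a 2-fold range and 0 degrees. TIF6 has the lowest range, 0.96, and MDN1 the latest peak, 20.8 degrees.

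The fall was steep and the recovery slow. All 43 genes also varied at 2 and 3 times the angle (limma's moderated F-test, largest adjusted p 1.34e-09), against 86.1% of all probe sets tested, and with these terms the curve was highest at a median of 27 degrees and lowest at a median of 121 degrees, with a median range of 3.68 on the log2 scale. The midpoint of the fall, where a gene passed the level midway on the log2 scale between its highest and lowest array, came at a median of 70.4 degrees, 13.25 min after the highest array. The midpoint of the last rise came at a median of 309.0 degrees, 63.9 min after the lowest array. For 31 of 43 genes the steepest fall between neighbouring arrays ran from 65.28 to 77.14 degrees, and the median gene dropped 2.11-fold over its steepest 4 min. Both arrays of that interval are lower-numbered.

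To place the changes, the arrays were divided into 7 windows of the angle and neighbouring windows were compared with limma. From the arrays at 362.01 and 5.93 to 41.54 degrees (n = 5) to those at 53.41 to 77.14 degrees (n = 3), 41 of 43 genes fell, against 24.9% of all probe sets tested, with a median change of -1.07 on the log2 scale. The genes not called on this step were MDN1, which changed by 0.14 ± 0.15, and NUG1, by -0.40 ± 0.21 (SE, adjusted p 0.424 and 0.113, limma). To 89.01 to 112.75 degrees (n = 3), 43 of 43 fell further, against 29.6% of all probe sets, with a median change of -1.90. From there to 124.62 to 172.09 degrees (n = 5) only MDN1 was called lower, against 9.87% of all probe sets, and none higher (limma), against 6.46%. On the deposited scale and with spike scaling 3 genes were called lower there. The median change of the 43 genes on that step was 0.05, and it was -0.30 on the deposited scale, where the median of all probe sets was -0.33, and -0.10 with spike scaling, where that of all probe sets was -0.13.

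The way back was gradual until the last window. From 124.62 to 172.09 degrees to 183.96 to 231.43 degrees, 19 genes were called higher and none lower (limma, median change 0.63), against 9.77% and 9.26% of all probe sets. On the next step, to 243.30 to 290.77 degrees, limma called 0 genes higher and 0 lower (median 0.48), against 0.572% and 0.498% of all probe sets. At an unadjusted p under 0.05 on that step there were 25 of 43 genes and 18.5% of all probe sets. From there to 302.64 to 350.11 degrees 23 were called higher and 0 lower (median 0.68), against 4.54% and 4.26%, and into the first window 43 of 43 rose (median 1.18), against 35.9%. The counts of 19 and 23 depended on scaling: on the deposited scale they were 42 and 0, with median centring 30 and 0, and with spike scaling 43 and 0. Shares of all probe sets called under these scalings were not computed. For each gene the residual spread was pooled over all 7 windows. The SE on every step therefore also holds changes inside other windows. The median log2 intensity over the 43 genes fell from 11.98 at 53.41 degrees to 10.03 at 77.14 degrees, inside 1 window. It rose from 9.65 at 183.96 degrees to 10.59 at 290.77 degrees. How far this spread bears on the counts of 0, 19 and 23 was not tested. A gene not called was not shown to be unchanged. On the step to 183.96 to 231.43 degrees the median change of all probe sets was 0.24 on the deposited scale and 0.165 with spike scaling. With median centring it was -0.02, and with quantile normalization -0.01. Leaving out the 5 dimmest arrays keeps 1 array at 124.62 to 172.09 degrees, and the median change on the step of the 19 was then 0.48. The windows compared for the 23 lost no array in that fit. There the 23 became 0, with a median change of 0.66. With the set of array numbers as a term the 23 became 4. The 41 genes of the first step ranged from 36 to 41 over the 11 alternatives run, and the 43 of the second and the last step stayed at 43. The first of these windows holds 1 lower-numbered and 4 higher-numbered arrays and the next holds 3 lower-numbered arrays. With the set of array numbers as a term the median change on that step was -1.11. For window means the fit with serial correlation used a correlation of 0.0038, so it nearly repeated the main fit.

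**Figure D3:**
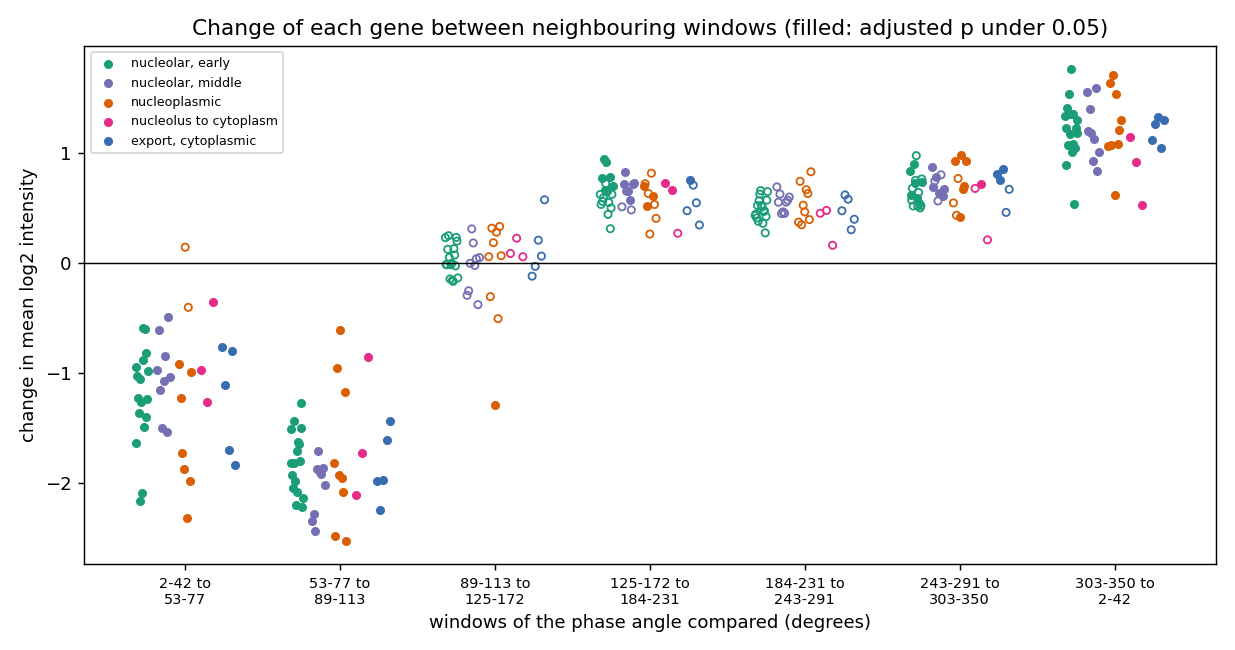
Each point is 1 gene on 1 step between neighbouring windows of the phase angle (degrees), and the vertical axis is the change in its mean log2 intensity. Filled points passed at an adjusted p under 0.05 (limma), open points did not, and colours give the step of assembly. On the first step all points but MDN1 lie below 0, and on the second step all points do. The single filled point of the third step, at -1.29, is MDN1.

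Early nucleolar factors had a median fitted range of 2.50 on the log2 scale, and 17 of 17 varied by 2-fold or more. MAK16 (probe set 1779169_at), which encodes a factor of the early pre-60S particle needed for 60S accumulation, was lowest at 91.7, had a median of 333 and was highest at 3234. It was highest on the arrays at 17.80 and 29.67 degrees and low on every array from 77.14 to 172.09 degrees. Its 5 arrays around 0 degrees averaged 2341 ± 638 (SD) and its 5 arrays at 124.62 to 172.09 degrees 128 ± 21.4, without overlap. Here and below, around 0 degrees means the window at 362.01 and 5.93 to 41.54 degrees, all after 0. All 43 genes were higher there than from 124.62 to 172.09 degrees without overlap, so this sets no gene apart. The share of all probe sets without overlap was not computed. The fitted range of MAK16 of 3.42 ± 0.41, with a peak at 353.7 ± 7.1 degrees (SE, n = 31 arrays, adjusted p = 9.35e-08, limma), was among the widest.

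SSF1 (probe set 1774186_at), which encodes a Brix domain protein of the early particle, ran from 114 through a median of 409 to 2929, with a fitted range of 3.26 ± 0.38 (SE, n = 31, adjusted p = 5.43e-08, limma). It averaged 2382 ± 526 (SD, n = 5) around 0 degrees and 159 ± 50.3 from 124.62 to 172.09 degrees. SSF1 has a close copy, SSF2, whose own probe set had a range of 1.27 ± 0.18 and a fitted peak at 359.7 degrees. Sharing of signal between these copies cannot be judged from the files, so the value of SSF1 is uncertain. NOP16 (probe set 1774362_at), a component of the nucleolar particle, had the smallest range of these 17 genes. Its values ran from 666 through 1180 to 4041, and its fitted range was 1.78 ± 0.22 with a peak at 2.3 ± 7.1 degrees (SE, n = 31, adjusted p = 9.77e-08, limma). It averaged 3438 ± 561 around 0 degrees and 786 ± 96.9 from 124.62 to 172.09 degrees (SD, n = 5), without overlap.

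The other early nucleolar genes lay between these. Genes of the module around Nsa1 differed among themselves: RRP1 varied by 2.78 ± 0.28, RPF1 by 2.37 ± 0.24 and NSA1 by 2.04 ± 0.23 (SE), beside the 3.42 of MAK16. RPF2 and RRS1, whose products bring the 5S RNA particle to the subunit, varied by 2.83 ± 0.33 and 2.18 ± 0.30 (SE). MAK21 and NOC2, which encode partners in a complex that binds early particles, varied by 2.15 ± 0.24 and 2.43 ± 0.31 (SE).

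RRP8, a methyltransferase gene for the large ribosomal RNA, varied by 3.00 ± 0.33, and RRB1, which encodes the chaperone of the ribosomal protein Rpl3, by 2.87 ± 0.28 (SE). The RNA helicase gene MAK5 and the RNA-binding protein genes NOP4 and NOP12 varied by 2.68 ± 0.32, 2.72 ± 0.34 and 2.13 ± 0.28 (SE). EBP2 and BRX1, whose products act together in the early particle, varied by 2.50 ± 0.31 and 2.13 ± 0.22 (SE). BRX1 was also the early nucleolar gene with the latest midpoint of the fall (77.6 degrees) and the earliest midpoint of the rise (256.3 degrees).

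Later nucleolar factors had a median fitted range of 2.64, with 9 of 9 at 2-fold or more. Nop7, Erb1 and Ytm1 form 1 complex that is needed to process the 27S precursor. NOP7 (probe set 1772508_at) ran from 229 through a median of 785 to 5350, a fitted range of 3.19 ± 0.33 (SE, n = 31, adjusted p = 9.19e-09, limma). YTM1 (probe set 1770200_at) ran from 307 through 935 to 5544, a range of 3.06 ± 0.35 (SE, n = 31, adjusted p = 3.51e-08, limma). ERB1, the remaining subunit, varied by 2.74 ± 0.29 (SE), and intervals of 1 SE around the 3 subunits overlap. The 5 arrays around 0 degrees averaged 4064 ± 1200 for NOP7 and 4652 ± 1020 for YTM1 (SD). On the 5 arrays from 124.62 to 172.09 degrees the means were 327 ± 71.3 and 385.6 ± 83.6, without overlap in either gene. Fitted peaks were at 3.1 ± 6.1 and 353.9 ± 6.7 degrees (SE).

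Genes of proteins that bind the same spacer overlapped ERB1 within 1 SE of each: CIC1 varied by 2.64 ± 0.32, RLP7 by 2.39 ± 0.26 and NOP15 by 2.26 ± 0.27 (SE). NOP15 (probe set 1778347_at) had the smallest range of the 9, from 810 through 2253 to 7741 (adjusted p = 5.91e-08, limma), with means of 6474 ± 1074 around 0 degrees and 1067 ± 180.7 from 124.62 to 172.09 degrees (SD, n = 5). The methyltransferase genes SPB1 and NOP2 varied by 2.89 ± 0.35 and 2.42 ± 0.23, and NSA2, which is needed for the same processing step, by 2.64 ± 0.28 (SE). NOP2 and ERB1 passed the midpoint of the fall at 80.4 and 78.2 degrees, late among the 43 genes.

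Nucleoplasmic factors held both the earliest and the latest falls of the 43 genes. All 9 of 9 varied by 2-fold or more, with a median range of 2.68. RIX1 (probe set 1769550_at), for the scaffold of a complex that acts with the ATPase Mdn1, ran from 163 through 597 to 4300 with a fitted range of 3.48 ± 0.35 (SE, n = 31, adjusted p = 5.99e-09, limma). It averaged 3444 ± 773 around 0 degrees and 212 ± 40.7 from 124.62 to 172.09 degrees (SD, n = 5), without overlap. The other subunits of that complex, IPI3 and IPI1, varied by 2.97 ± 0.38 and 1.87 ± 0.28 (SE). RSA4 (probe set 1779136_at), whose product Mdn1 pulls off the particle, ran from 211 through 743 to 5159 with a range of 3.45 ± 0.39 (SE, n = 31, adjusted p = 2.89e-08, limma), and averaged 4705 ± 498 and 295.5 ± 29.5 in those windows (SD, n = 5). RSA4 also had the steepest fall of all 43 genes between neighbouring arrays, 2.81-fold from 65.28 to 77.14 degrees.

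MDN1 (probe set 1778865_at, named REA1 in the gene table) encodes the giant AAA ATPase that removes Ytm1 and Rsa4 from pre-60S particles. Its intensity was 10733 at 29.67 degrees, 9916 at 41.54, 10911 at 53.41 and 10107 at 65.28 degrees, then 9141 at 77.14, 8360 at 89.01 and 7004 at 100.88 degrees, and 2981 at 124.62 degrees. It was thus still high at 77.14 and 89.01 degrees, by which angles 38 and 42 of the other 42 genes had passed the midpoint of their fall. It averaged 9168 ± 1341 around 0 degrees and 2703 ± 260 from 124.62 to 172.09 degrees (SD, n = 5), without overlap, and was lowest, at 2341, at 160.22 degrees. The midpoint of its fall came at 111.4 degrees, against 56.8 to 80.9 degrees in the other 42 genes. Its fitted range was 1.73 ± 0.16 (SE, n = 31 arrays, adjusted p = 7.37e-10, limma).

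On the step from 89.01 to 112.75 degrees to 124.62 to 172.09 degrees, MDN1 fell by 1.29 ± 0.15 on the log2 scale (SE, adjusted p = 2.62e-06, limma), while the other 42 genes had changes between -0.51 and 0.57 and none was called, though 3 of the 43 were on the deposited scale and with spike scaling. The difference between MDN1 and the others was not tested, since MDN1 was singled out by its values. MDN1 had the lowest change of the 43 genes on this step under each of the 11 alternatives in which it was computed, and the latest fitted peak under each of 14. The alternatives of dim filter and probe set could not change these values, since each of the 43 genes had 1 probe set. On this step the fit with serial correlation used a correlation of 0.0038 and left the change of MDN1 at -1.287, so it was no separate check. Across the 31 arrays MDN1 correlated with the mean of the other 42 genes at r = 0.744, against at least 0.942 in the others. The annotated length of MDN1 in the assembly R64 is 14733 bases.

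IPI1 (probe set 1771359_at), for a subunit of the complex around Rix1, passed its midpoint earliest of the 43 genes, at 56.8 degrees. It ran from 301 at 89.01 degrees through a median of 675 to 2854 at 29.67 degrees, with a fitted range of 1.87 ± 0.28 and a peak at 343.0 ± 8.6 degrees (SE, n = 31, adjusted p = 2.39e-06, limma). It averaged 2207 ± 426 around 0 degrees and 432 ± 91.5 from 124.62 to 172.09 degrees (SD, n = 5).

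NOG2 (probe set 1779287_at) encodes a GTPase that holds the place of the export adaptor Nmd3, and its fall came next, at 58.6 degrees. It ran from 755 through 1726 to 8608, with a range of 2.36 ± 0.31 and a peak at 346.9 ± 7.5 degrees (SE, n = 31, adjusted p = 2.57e-07, limma), and averaged 7271 ± 1126 and 1023 ± 126 in the same windows (SD, n = 5). NUG1 (probe set 1771320_at), for another GTPase of the nuclear particle, fell later than all but MDN1, at 80.9 degrees. It ran from 532 through 1363 to 5586, with a range of 2.68 ± 0.25 and a peak at 2.9 ± 5.5 degrees (SE, n = 31, adjusted p = 1.57e-09, limma), and averaged 4555 ± 921 and 564 ± 35.6 (SD, n = 5). The windows did not overlap in any of these genes. SDA1 and NOC3, which act in nuclear 60S maturation, varied by 3.25 ± 0.31 and 2.23 ± 0.28 (SE).

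The genes of factors that join in the nucleolus and leave in the cytoplasm are NOG1, RLP24 and TIF6. NOG1 (probe set 1778063_at), for a GTPase, ran from 678 through 1764 to 7862 and varied by 2.56 ± 0.30 (SE, n = 31, adjusted p = 6.18e-08, limma). RLP24 (probe set 1772264_at), for the placeholder of the ribosomal protein Rpl24, ran from 717 through 1859 to 6883 and varied by 2.46 ± 0.27 (SE, n = 31, adjusted p = 2.13e-08, limma). Around 0 degrees they averaged 6565 ± 1205 and 6259 ± 783, and from 124.62 to 172.09 degrees 820 ± 124 and 918 ± 127 (SD, n = 5). These windows did not overlap, and both ranges lay inside those of the nucleolar genes.

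TIF6 (probe set 1777948_at) encodes the factor that keeps 60S subunits from joining 40S subunits until it is released. It ran from 2525 through 3773 to 7359, and its 5 arrays around 0 degrees averaged 6324 ± 810 against 2819 ± 259 (SD) on the 5 arrays from 124.62 to 172.09 degrees, without overlap. Its fitted range of 0.96 ± 0.13 (SE, n = 31, adjusted p = 6.32e-07, limma) was the only one of 43 under 2-fold, and it lay on both sides of that line over the alternatives, from 0.67 over the lower-numbered arrays alone to 1.28 over the higher-numbered arrays alone. It was 1.20 on the deposited scale, 1.10 with a time trend and 1.02 when scaled by the hybridization spikes. Its shape was that of the group (r = 0.986 with the mean of the other members). TIF6 had the smallest range of the 43 genes under each of the 14 alternatives, of which those of dim filter and probe set could not change a range.

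Export and cytoplasmic factors had a median fitted range of 2.60, and 5 of 5 passed with 2-fold ranges. ALB1 (probe set 1779514_at) and ARX1 (probe set 1773459_at), whose products bind each other and ride the subunit through the pore, moved alike. ALB1 ran from 413 through 1277 to 7549 with a range of 2.98 ± 0.34, and ARX1 from 493 through 1393 to 7338 with a range of 2.93 ± 0.32 (SE, n = 31, adjusted p 4.41e-08 and 1.61e-08, limma). NMD3 (probe set 1770043_at), for the adaptor to the export receptor Crm1, ran from 671 through 1472 to 7435 with a range of 2.60 ± 0.26 (SE, n = 31, adjusted p = 4.39e-09, limma). Around 0 degrees the means were 6252 ± 1033 for ALB1, 6079 ± 1132 for ARX1 and 6172 ± 1153 for NMD3 (SD, n = 5). From 124.62 to 172.09 degrees they were 570 ± 123, 575 ± 61.5 and 837 ± 125, without overlap in any of them. Fitted peaks were at 349.99 ± 6.7, 354.0 ± 6.3 and 1.4 ± 5.8 degrees (SE).

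The last steps are in the cytoplasm. REI1 (probe set 1771650_at), whose product removes Arx1 and Alb1, ran from 458 through 1092 to 5277 with a range of 2.29 ± 0.33, and LSG1 (probe set 1778190_at), for the GTPase that releases Nmd3, from 597 through 1261 to 4987 with a range of 1.93 ± 0.26 (SE, n = 31, adjusted p 1.22e-06 and 4.17e-07, limma). REI1 passed the midpoint of its fall at 61.6 degrees, before ARX1 at 71.6 and NMD3 at 76.4 degrees, while arrays are spaced 11.87 degrees apart. These timings are read from single arrays and have no error of their own. Around 0 degrees REI1 averaged 4568 ± 698 and LSG1 3849 ± 935, and from 124.62 to 172.09 degrees 702 ± 110 and 746 ± 124 (SD, n = 5), without overlap.

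**Figure D4:**
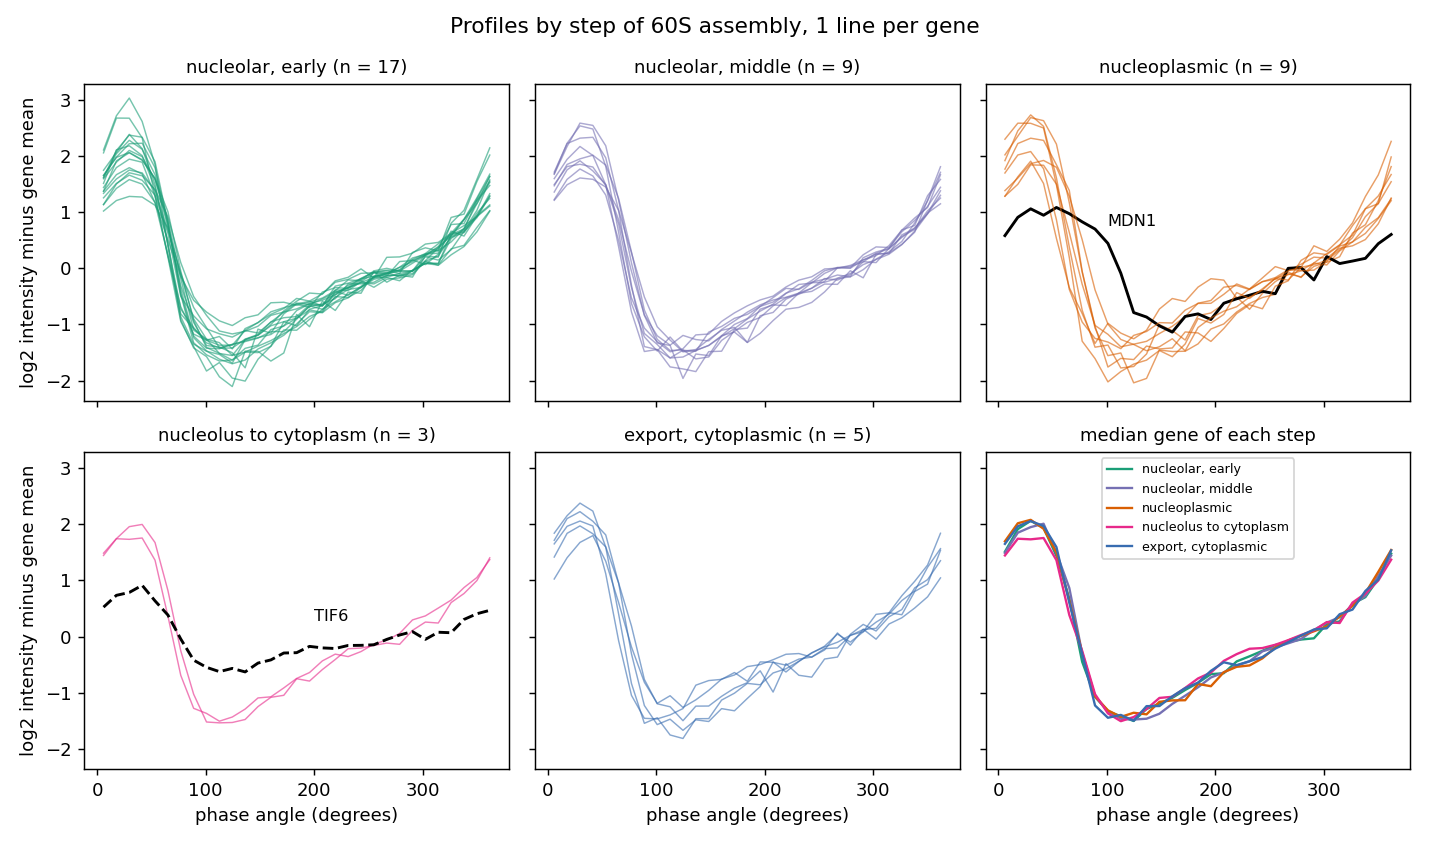
Each line is 1 gene, as log2 intensity minus the mean of the gene against phase angle (degrees), in a panel for each step, and the last panel gives the median gene of each step. The 5 medians run nearly on top of each other. MDN1 (black) stays high to 100.88 degrees, and TIF6 (dashed) swings least.

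The 17 early nucleolar genes and the 5 export and cytoplasmic genes had close medians. The median fitted range was 2.50 in the 17 early nucleolar genes and 2.60 in the 5 export and cytoplasmic genes, a difference of 0.09 that ran from -0.09 to 0.15 over 14 alternatives. The mean peak angle was 353.7 degrees in the former and 354.3 in the latter, and the difference of 0.61 degrees stayed between 0.25 and 0.91 degrees over the alternatives. The median midpoint of the fall was 69.6 and 70.4 degrees and that of the rise 313.9 and 309.0 degrees. No test was made of these differences, and the SEs of the peak angles of single genes ran from 5.24 to 8.64 degrees. With 5 genes the late side is small, and 12 other late factors had a median range of 1.54 and a mean peak angle of 4.0 degrees. Of the 12, 11 varied with phase, and the mean angle also takes in CRM1, whose variation was not detectable.

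The swing was present in both sets of array numbers. The median fitted range was 1.95 over the lower-numbered arrays alone and 3.31 over the higher-numbered arrays alone, and all 43 genes passed within each set (largest adjusted p 0.00534 and 0.000361, limma), against 77% and 83.2% of all probe sets tested. The sets sampled different angles: the arrays at 17.80 to 41.54 degrees and at 100.88 to 148.35 degrees, which hold the highest array of 42 genes and the lowest array of 40, are all higher-numbered. The highest and lowest arrays of MDN1 and the lowest of IPI1 and NUG1 are lower-numbered. The first and last arrays lie 3.92 degrees apart across the cycle boundary and come from different sets. The 43 genes differed between them by a median of -0.06 on the log2 scale (last minus first, from -0.15 to 0.12), 34 being lower on the last array, and all probe sets by a median of 0.00.

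Related genes give the scale of these values. Among 26 other nuclear 60S factors, 26 varied by 2-fold or more, with a median fitted range of 2.05, and among 54 measured factors of 40S assembly 52 did, with a median of 2.46. The 70 genes of the ribosomal proteins of the 60S subunit itself had a median range of 0.41 and a mean peak angle of 0.7 degrees, and 3 of 70 varied by 2-fold or more, below the 23.1% of all probe sets tested. Their probe sets were bright, with a median intensity of 10007 as deposited, against 1371 for the 43 genes. Whether brightness bears on the range was not tested. Ribosomal protein genes often come as duplicated pairs in yeast, and how far such pairs share signal on the array is not known here. These medians describe the lists, and no test of their difference was made.

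Among 12 other factors of late 60S maturation and export, 11 varied, which is close to the 89.1% of all probe sets tested, and 9 did so by 2-fold or more, against 23.1%. Their median range was 1.54. The widest were YVH1, for the phosphatase that releases Mrt4, with 2.98 ± 0.33, and MRT4, for the placeholder of a stalk protein, with 2.70 ± 0.32 (SE). The narrowest were CRM1, for the general export receptor, with 0.12 ± 0.06 (SE, adjusted p = 0.131, limma), and MEX67, for the mRNA export receptor, with 0.58 ± 0.11 (SE, adjusted p = 0.000138, limma). Both receptors also carry other cargo. Variation of CRM1 with phase was not detectable with these arrays, beside a fitted range of 2.60 for its 60S adaptor gene NMD3; the difference was not tested.

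**Figure D5:**
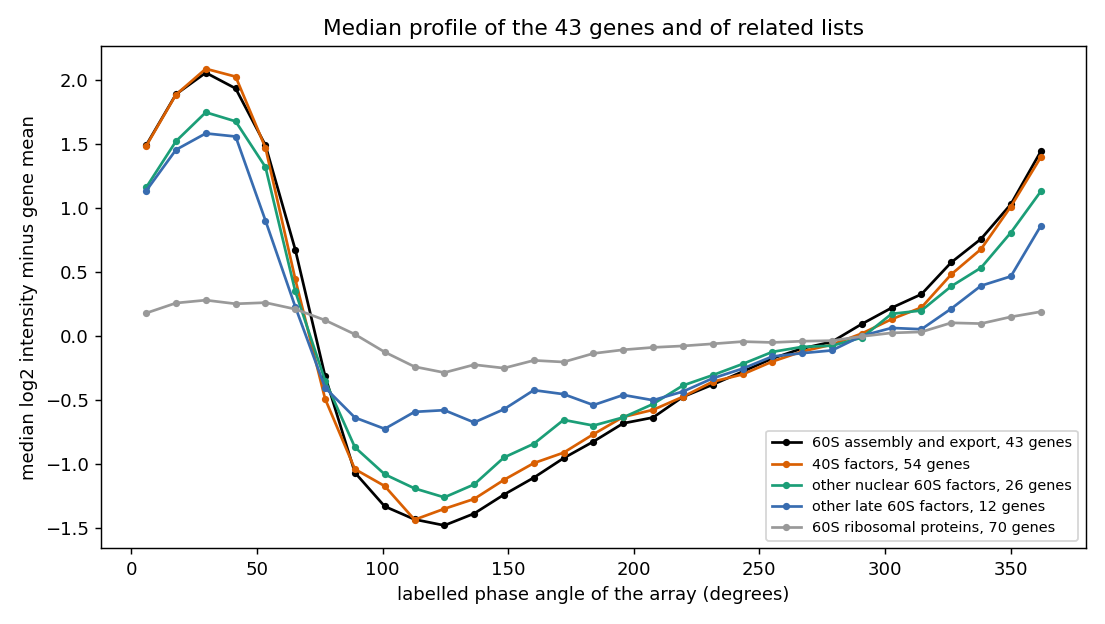
Lines give the median log2 intensity minus gene mean of each list on each of the 31 arrays against phase angle (degrees), with 1 point per array. The 43 genes and the 40S factors run together, the other 60S factors swing less, and the 70 ribosomal protein genes swing least.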

How the data were processed

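Biotin-labelled cRNA from total RNA of 31 samples was hybridized to 1 Affymetrix Yeast 2.0 array each, per the labels' protocols. The files hold deposited linear intensity values, 1 per probe set; the submitters' processing notes name GCOS. Its version and scaling and the genome build are not stated, so no coordinates are printed. Of 10928 probe sets, 5498 had 1 S. cerevisiae gene in the array annotation, with 12 symbols updated from a gene table of assembly R64. Log2 values were computed from the deposited intensities and quantile-normalized over these, since array medians differed 2.03-fold. Dim probe sets were dropped, those with medians not above 17.04, percentile 95 of the probe sets for other organisms, leaving 5422 with all 43 genes. limma 3.58.1 in R 4.3.3 gave a moderated F-test of the cosine and sine of the angle, the same for terms at 2 and 3 times the angle, and contrasts between neighbouring windows, with Benjamini-Hochberg adjustment over all 5422 and a threshold of 0.05. The scripts were tested on simulated data with independent noise on each array, which does not cover the correlation of neighbouring arrays. Figures were drawn with matplotlib 3.10.9. Genes, lists, roles and windows were chosen with earlier results of these data known.

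Genes described in full have the 2 largest or the smallest range of their role, are export or cytoplasmic, have the 2 earliest or 2 latest falls or the 2 lowest correlations with the other members, or have a near-identical copy (SSF1). Alternatives were the deposited scale, median centring, spike scaling, an offset of 16, no dim filter or percentile 99, the set of array numbers as a term or alone, serial correlation, a time trend, leaving out the last or the 5 dimmest arrays, and the lowest of several probe sets. Promoter and protein sequences were not used here.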

Additional observations from a re-analysis of the deposited data

How the results depend on the processing

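Every gene stayed past the threshold for variation with phase under the 14 alternatives, in all 602 comparisons. The alternatives of dim filter and probe set left the fitted values of the 43 genes unchanged and could only shift their adjusted p. A time trend moved the mean peak angle from 354.5 to 335.1 degrees. The median fitted range of 2.60 became 2.96 on the deposited scale, 1.95 over the lower-numbered arrays alone and 3.31 over the higher-numbered arrays alone. Counts of genes lower on the step to 124.62 to 172.09 degrees were 1 here and 3 on the deposited scale and with spike scaling. Counts of genes higher on the step to 183.96 to 231.43 degrees were 19 here, 42 on the deposited scale, 30 with median centring, 43 with spike scaling and 0 without the 5 dimmest arrays, which leaves 1 array in the earlier window. Counts on the step to 302.64 to 350.11 degrees were 23 here, 4 with the set of array numbers as a term, and 0 with each of the deposited scale, median centring, spike scaling and the fit without the 5 dimmest arrays. On the step to 243.30 to 290.77 degrees 2 genes were called with spike scaling and 0 here. On the deposited scale the median change of all probe sets was -0.33, 0.24 and -0.25 on the third, the fourth and the last step. The cause of these shifts was not tested, and the shares of all probe sets called on each step were not computed under the alternatives. Contrasts between windows and the faster terms were not run within single sets of array numbers or with a time trend. No paired analysis was possible because the arrays form 1 group.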

Other observations

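Across the 43 genes the midpoint of the fall and the log2 annotated length gave Pearson's r = 0.570 and Spearman's rho = 0.235, and without MDN1, over 42 genes, r = 0.169 and rho = 0.179. These are descriptions across genes measured on the same arrays, which are not independent replicates, and MDN1 was left out after its values were seen.

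In the gene order of assembly R64, none of the 43 genes lies directly beside another of them. Directly beside a listed gene of 40S assembly lie 5 of them (11.6%), against 108 of 6021 protein-coding genes (1.79%), a description for which no test was made. SSF1 neighbours the helicase gene RRP3, whose fitted range was 2.20 ± 0.30, NSA2 neighbours LCP5 with 2.43 ± 0.34, RIX1 neighbours UTP9 with 2.64 ± 0.34, NOG2 neighbours ESF2 with 2.16 ± 0.34 and NMD3 neighbours the helicase gene DBP8 with 1.97 ± 0.29 (SE, n = 31 arrays). Fitted peaks of these neighbours lay between 348.5 degrees (UTP9) and 358.7 degrees (RRP3).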
